A study of Mus musculus with 6 samples.

Results

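The spindle checkpoint genes around Bub1 are 10 genes chosen by symbol: Bub1, Bub1b, Bub3, Mad1l1, Mad2l1, Mad2l1bp, Ttk, Knl1, Zwint and Trip13. All 10 are among the 15982 genes of the authors' deposited table, each with 1 entry. The table compares bone marrow-derived macrophages (BMMs) of mice with a myeloid-specific Bub1 conditional knockout (Bub1 cKO) with BMMs of control mice (Ctrl), with 3 libraries per genotype and 6 in all. Cells of both genotypes had 3 days in the macrophage growth factor M-CSF (20 ng/ml) and then 2 days in M-CSF with the osteoclast-inducing cytokine RANKL (50 ng/ml). The Cre driver, the deleted exons, the age of the mice and whether libraries came from separate animals are not given in the labels, so p-values measure the spread between libraries, which may be technical. RNA was read from the 3' ends of transcripts, and in such bulk samples fewer dividing cells and less RNA per cell cannot be told apart.

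The spindle checkpoint delays anaphase until every chromosome is attached to the spindle. At an unattached kinetochore the kinase Ttk (Mps1) phosphorylates the scaffold Knl1, which then binds Bub1 with Bub3, and Bub1 helps to bring in Mad1 and Mad2 (Mad1l1 and Mad2l1). Mad2, BubR1 (Bub1b), Bub3 and Cdc20 form the mitotic checkpoint complex, which inhibits the anaphase-promoting complex, and p31comet (Mad2l1bp) with the ATPase Trip13 takes it apart again. Osteoclast precursors divide in response to M-CSF before they leave the cell cycle and fuse.

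Each gene has 1 expression value per genotype, read as TPM (transcript abundance scaled to a fixed total) because the columns sum to 999891 (Ctrl) and 999954 (Bub1 cKO), so no spread between libraries can be shown. Whether the values were also divided by transcript length is not stated in the labels or the file. The order of the genes by level is therefore a description on the deposited scale, and neighbours in it cannot be told apart. By the mean of both genotypes the authors' deposited table has Bub3 at the top with 44.1 TPM, followed by Mad2l1 (26.5 TPM), Zwint (22.9 TPM), Mad1l1 (12.4 TPM) and Ttk (11.1 TPM). Bub1b (9.82 TPM), Knl1 (9.64 TPM), Mad2l1bp (8.93 TPM), Trip13 (8.49 TPM) and Bub1 (6.02 TPM) come after them in the authors' deposited table. The order differs between the genotypes: Mad2l1 is in place 2 of 10 in Ctrl and in place 8 in Bub1 cKO, and Mad1l1 in place 8 in Ctrl and 3 in Bub1 cKO. Bub1, the lowest in both, was still above 58.5% of all genes in mean level and Bub3 above 87.8%. The lower of both values was 5.32 TPM or more in each of the 10 genes, so none reached a filter of 1 TPM through 1 genotype alone.

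**Figure D1:**
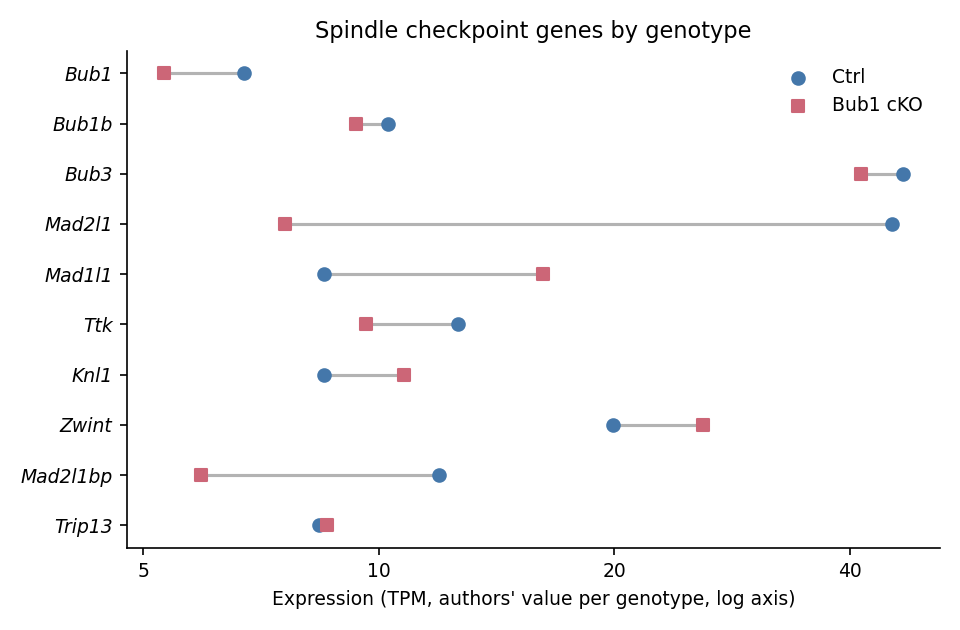
Expression of the 10 checkpoint genes in Ctrl (circles) and Bub1 cKO (squares), as the authors' TPM value per genotype on a log axis. Mad2l1 has the widest distance, from 45.4 to 7.59 TPM, and 6 genes are lower and 4 higher in Bub1 cKO.

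The contrast asks which genes change in RANKL-treated precursors when Bub1 is deleted in myeloid cells. Of the checkpoint genes none passed the adjusted threshold of 0.05 in the authors' deposited table (0 of 10, against 0.181% of all genes). At an unadjusted p under 0.05 the count was also 0 of 10, against 6.27% of the 10881 genes whose mean reached 1 TPM, the background used from here on. By the sign of the authors' statistic 7 of the 10 genes lay lower in Bub1 cKO (70.0%, against 50.4% of that background). By the deposited levels 6 of 10 lay lower (60.0%, against 50.8%). The median log2 change of the levels was -0.15 over the 10 genes and -0.01 over the background genes. By the change that the authors' test itself estimated (its statistic times its standard error) the median was -0.28 over the 10 genes and -0.00 over the background genes.

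The precision limits what could be seen. The weakest statistic called in the authors' deposited table has a size of 3.92, so with its standard error a gene needed a log2 change of 0.86 for Bub3, 1.65 for Bub1 and 2.46 for Mad2l1bp. These correspond to 1.81-fold, 3.14-fold and 5.52-fold, with the other 7 genes in between. The median standard error of the 10 genes was 0.42 on the log2 scale, and that of the 4687 genes between the lowest and the highest mean of the 10 was 0.41. Below, the 95% interval belongs to the log2 change that the authors' test itself estimated (statistic times standard error), while the log2 change of the levels is that of the deposited values with 1 TPM added to each.

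Bub1 itself (ENSMUSG00000027379.13, chr2:127801122-127831865, minus strand, GRCm38), the kinase that is the knockout target, is listed in the authors' deposited table at 6.73 TPM for Ctrl and 5.32 TPM for Bub1 cKO. The test's own log2 change was -0.32 with a 95% interval from -1.15 to 0.50, or from 0.45-fold to 1.42-fold. The interval takes in no change as well as a fall to less than 0.50 of the Ctrl level. Since 3' tags can lie outside the deleted exons, this value does not check the genotype labels. No other annotated gene overlaps Bub1, so its tags cannot be shared with an overlapping gene. Of the other genes Bub3, Mad1l1 and Trip13 overlap annotated genes, some of them antisense, none of which has an entry in the authors' deposited table.

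Among the subunits of the checkpoint complex, Bub1b and Bub3 had values close together in both genotypes, with no call for either. For Bub1b (ENSMUSG00000040084.9, chr2:118598211-118641591, plus strand), the pseudokinase-bearing relative of Bub1, the authors' deposited table gives 10.3 TPM (Ctrl) against 9.36 TPM (Bub1 cKO), and the test's own log2 change had an interval from -0.71 to 0.47. Bub3 (ENSMUSG00000066979.6, chr7:131560222-131571895, plus strand), the WD40 protein that carries both Bub1 and BubR1 to Knl1, stood at 46.8 TPM (Ctrl) against 41.3 TPM (Bub1 cKO) by the authors' deposited table. The interval of Bub3 was the narrowest of the 10, from -0.66 to 0.20 on the log2 scale, or from 0.63-fold to 1.15-fold. Changes of Bub3 larger than these lie outside the interval.

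Mad2l1 (ENSMUSG00000029910.14, chr6:66535390-66547220, plus strand), the Mad2 protein that changes fold when it binds Cdc20, had 2 values that disagree. The authors' deposited table shows 45.4 TPM for Ctrl and 7.59 TPM for Bub1 cKO, which makes the log2 change of the levels -2.43. The test behind the same entry of the authors' deposited table gives a statistic of -1.28 (unadjusted p = 0.202), and its own log2 change was -0.54 with an interval from -1.37 to 0.29. Both point to a lower value in Bub1 cKO, but the change of the levels lies outside the interval. Among the 5159 genes whose mean reached 10 TPM, Mad2l1 was 51st from the bottom by the change of the levels and 412th by the test's own change.

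Mad1l1 (ENSMUSG00000029554.15, chr5:140008689-140321552, minus strand), which holds Mad2 at the kinetochore, had the smallest p of the 10 and the higher value in Bub1 cKO. It is at 8.51 TPM (Ctrl) and 16.2 TPM (Bub1 cKO) in the authors' deposited table. The test's own log2 change was 0.92, with an interval from -0.04 to 1.88, or from 0.97-fold to 3.68-fold, and an unadjusted p of 0.06 in the authors' deposited table (adjusted p = 0.985). The Mad1 and Mad2 partners thus had values on opposite sides, and the difference between them was not tested.

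Upstream of these, the kinase Ttk (ENSMUSG00000038379.15, chr9:83834689-83872389, plus strand) is given as 12.6 TPM (Ctrl) and 9.64 TPM (Bub1 cKO) in the authors' deposited table, with an interval from -1.19 to 0.45 on the log2 scale. For the scaffold Knl1 (ENSMUSG00000027326.13, chr2:119047119-119105501, plus strand) the signs were opposite. The authors' deposited table gives its level as 8.52 TPM (Ctrl) and 10.8 TPM (Bub1 cKO), so the levels differ by 0.31 on the log2 scale, whereas the test's own log2 change was -0.47 with an interval from -1.07 to 0.14. No direction is therefore given for Knl1. Zwint (ENSMUSG00000019923.14, chr10:72654845-72674964, plus strand), which binds Knl1 and links it to the Rod-Zw10-Zwilch complex, was higher in Bub1 cKO by both measures, at 19.9 TPM (Ctrl) and 25.9 TPM (Bub1 cKO) in the authors' deposited table. The test of Zwint missed the threshold, with an interval from -0.20 to 1.20 on the log2 scale.

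Of the pair that takes the checkpoint complex apart, Mad2l1bp had the lower value in Bub1 cKO and Trip13 stood nearly level. Mad2l1bp (ENSMUSG00000034509.8, chr17:46147387-46153553, minus strand), the Mad2-binding protein p31comet, stood at 11.9 TPM (Ctrl) and 5.92 TPM (Bub1 cKO) in the authors' deposited table. Here both measures agreed, with a log2 change of the levels of -0.90 and a test's own change of -0.97, but the interval was the widest of the 10 (-2.20 to 0.26) and the unadjusted p was 0.123 in the authors' deposited table. Trip13 (ENSMUSG00000021569.10, chr13:73911347-73937784, minus strand), the ATPase that p31comet brings to Mad2, was at 8.38 TPM (Ctrl) and 8.60 TPM (Bub1 cKO) by the authors' deposited table. The interval of Trip13 reached from 0.50-fold to 2.12-fold, so the near-equal levels do not show that Trip13 was unaffected.

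**Figure D2:**
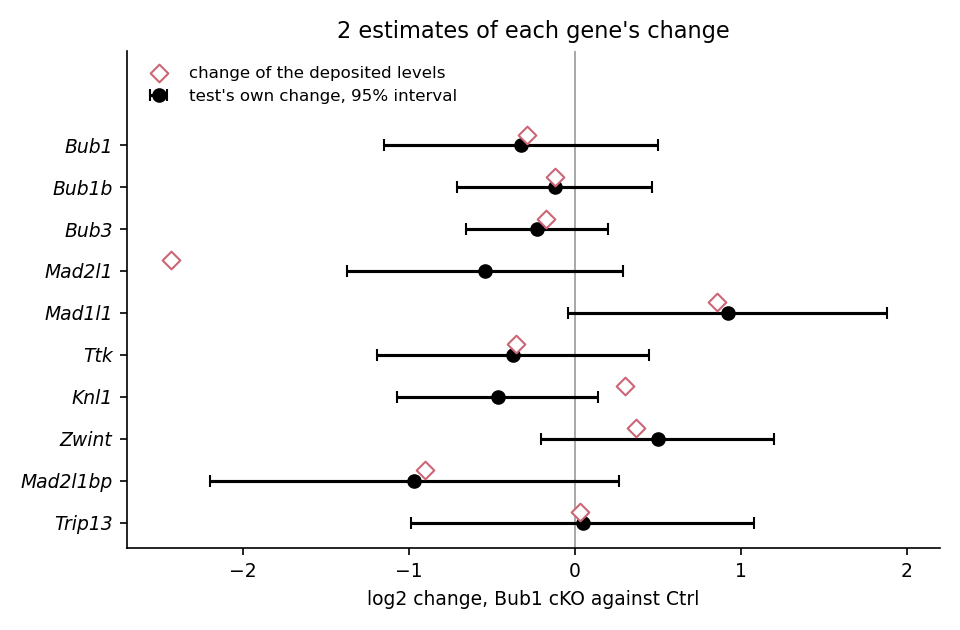
The log2 change of each gene in Bub1 cKO against Ctrl, as the test's own change with its 95% interval (black) and as the change of the deposited levels (open diamonds). All 10 intervals take in 0, and the diamonds of Mad2l1 (-2.43) and Knl1 (0.31) lie outside theirs.

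Mad2l1 and Knl1 were the 2 genes whose measures differed by more than 1 standard error (4.46 and 2.50 standard errors), against 1033 of the 7159 genes whose mean reached 5 TPM. Among the 7130 of these genes that GENCODE annotates, such gaps were more frequent the more transcripts a gene has. The share was 0.657% of 761 genes with 1 annotated transcript, 7.55% of 1258 genes with 2 to 3, 14.7% of 2189 genes with 4 to 6 and 20.9% of 2922 genes with 7 or more. The median size of the gap was also larger, going from 0.03 to 0.13 on the log2 scale, while the median standard error was 0.61 for genes with 1 transcript and between 0.35 and 0.36 for the rest. Mad2l1 has 4 annotated transcripts and Knl1 has 5. The coding transcripts of Mad2l1 are 1725 and 7557 bases long and end 6229 bases apart, and those of Knl1 range from 370 to 7800 bases. The number of transcripts did not separate these 2 from the other 8 checkpoint genes, whose gaps were at most 0.37 standard errors. Bub3 has 7 annotated transcripts and a gap of 0.24 standard errors, and Mad1l1, Ttk and Zwint have 6 each with gaps of 0.13, 0.03 and 0.37. Mad2l1bp has 1 transcript and a gap of 0.11 standard errors. How the authors assigned reads to transcripts is not stated in the labels, and its part in the gaps was not tested.

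**Figure D3:**
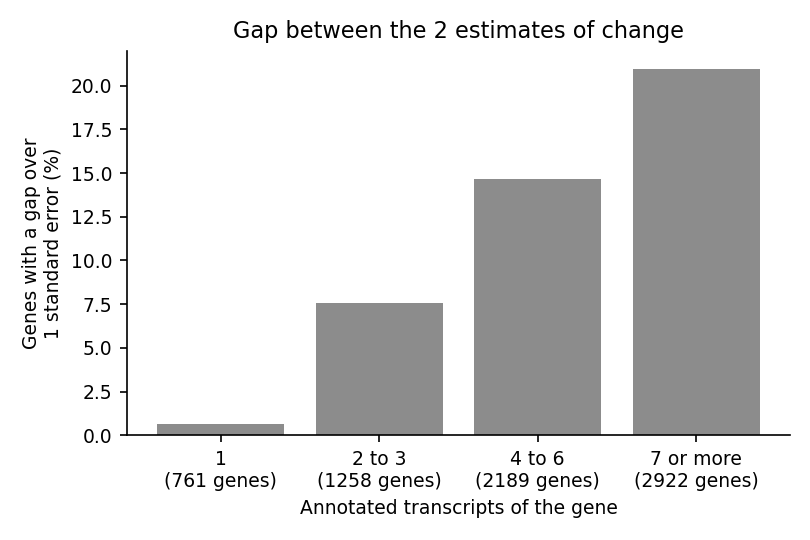
Share of genes (%) whose change of the levels and test's own change differ by more than 1 standard error, by number of annotated transcripts, for genes whose mean reached 5 TPM. The share goes from 0.657% with 1 transcript to 20.9% with 7 or more.

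The promoters were compared because many genes of late cell cycle share a short element near the transcription start, the cell cycle homology region, through which MuvB complexes repress them in resting cells and activate them before mitosis. RefSeq promoter sequences (GRCm38.p6, 250 bases before to 50 after the start) matched all 10 genes, and the window nearest to the gene's annotated start was used. The search took the hexamer TTTGAA on both strands. It also took the variant TTCGAA, the related TTTAAA as well as CTTGAA, a choice made after the sequences had been seen. The first and the second of these variants read the same on both strands. TTTGAA alone lies within 50 bases of the start in 4 of the 10 promoters, Bub1b, Bub3, Ttk and Knl1, against 4.94% of all 32851 promoter windows, and over the full 300 bases also in 4 of 10, against 17.9%. With the 3 variants the count near the start is 7 of 10 against 12.1%, and over the full 300 bases 8 of 10 against 37.3%. Because the variants were picked with these promoters in view, the counts that include them can be raised by that choice and only list where the letters occur. TTCGAA, found in 0.374% of all windows within 50 bases of the start, is there in Bub1 and Trip13. In the 58 other pathway genes described below, 19 of 49 with a promoter sequence (38.8%) hold one of the 4 within 50 bases of a start. There a match in any window of a gene counted, which can raise the share for genes with several starts. The 12.1% is a share of single windows, so it is not a like background for these 49 genes. A match is a description of letters and does not show that a factor binds.

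The stretches from 50 bases before to 50 bases after the start are shown for the 7 genes with a match, in the direction of the gene and with the hexamer in capitals (TTCAAA is TTTGAA on the other strand). In order they lie at chr2:127831810-127831909 (minus), chr2:118598161-118598260 (plus), chr7:131560320-131560419 (plus), chr9:83834639-83834738 (plus), chr2:119047069-119047168 (plus), chr10:72654796-72654895 (plus) and chr13:73937718-73937817 (minus).
Bub1: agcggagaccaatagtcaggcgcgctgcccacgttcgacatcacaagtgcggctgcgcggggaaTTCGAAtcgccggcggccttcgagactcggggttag
Bub1b: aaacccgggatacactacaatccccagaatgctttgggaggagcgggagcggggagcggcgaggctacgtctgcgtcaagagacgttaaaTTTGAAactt
Bub3: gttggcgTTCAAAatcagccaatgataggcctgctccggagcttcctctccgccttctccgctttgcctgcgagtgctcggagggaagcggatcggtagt
Ttk: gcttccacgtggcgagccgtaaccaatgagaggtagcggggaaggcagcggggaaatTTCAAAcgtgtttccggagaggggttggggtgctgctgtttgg
Knl1: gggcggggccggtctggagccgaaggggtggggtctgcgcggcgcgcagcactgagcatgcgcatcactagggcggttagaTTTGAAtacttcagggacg
Zwint: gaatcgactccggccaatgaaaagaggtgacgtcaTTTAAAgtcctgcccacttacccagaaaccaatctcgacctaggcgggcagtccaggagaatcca
Trip13: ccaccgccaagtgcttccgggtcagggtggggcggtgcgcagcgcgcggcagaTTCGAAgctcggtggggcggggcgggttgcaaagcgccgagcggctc

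The hexamer begins 15 bases into the transcript in Bub1 (counted from 1 at the start), at position 41 in Bub1b, 8 in Ttk, 32 in Knl1 and 4 in Trip13, and before the start at -15 in Zwint and -43 in Bub3. CCAAT, the box bound by the factor NF-Y, occurs in 5 of the 10 promoters, Bub1, Bub1b, Bub3, Ttk and Zwint, against 37.4% of all windows of 300 bases. Mad2l1, Mad1l1 and Mad2l1bp have none of the 4 hexamers within 50 bases of the RefSeq start. For Mad2l1 the stretch around that start (66535221) ends before the GENCODE gene begins (66535390). The bases around the GENCODE start were thus not searched as a start. For Bub3 the RefSeq and GENCODE starts also differ (131560370 and 131560222). The 3 stretches without a match are shown for comparison at chr6:66535171-66535270 (plus), chr5:140321503-140321602 (minus) and chr17:46153502-46153601 (minus).
Mad2l1: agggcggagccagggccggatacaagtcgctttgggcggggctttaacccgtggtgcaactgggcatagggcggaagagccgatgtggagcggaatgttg
Mad1l1: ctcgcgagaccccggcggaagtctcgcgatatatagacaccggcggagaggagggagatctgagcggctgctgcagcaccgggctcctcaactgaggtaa
Mad2l1bp: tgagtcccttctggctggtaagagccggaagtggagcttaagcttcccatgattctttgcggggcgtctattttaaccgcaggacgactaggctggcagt

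**Figure D4:**
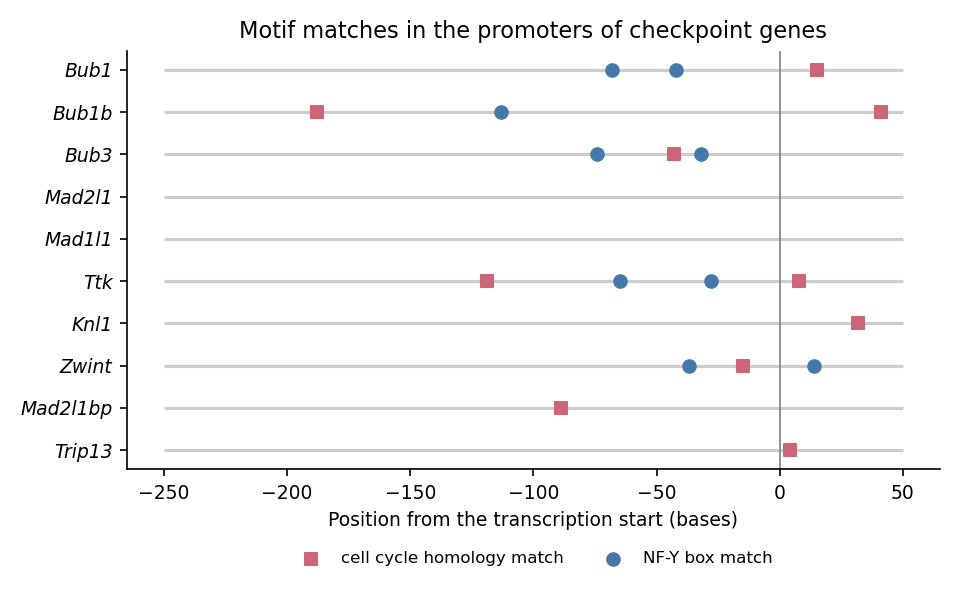
Positions of hexamer matches of the cell cycle homology type (squares) and of NF-Y box matches (circles) in the promoter windows of the 10 genes, in bases from the transcription start. In 7 genes a square lies within 50 bases of the start, and Mad2l1 and Mad1l1 have no match of either kind.

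The other genes of the pathway were taken from a list of 58, all of which reached a mean of 1 TPM. None passed the adjusted threshold in the authors' deposited table (0 of 58, against 0.181% of all genes). With the unadjusted threshold 5 of the 58 were lower in Bub1 cKO (8.62%, against 3.21% of the background) and 0 were higher. The statistic was negative for 40 of the 58 (69.0%, against 50.4% of the background). The median log2 change of the levels was -0.18, against -0.01 over the background genes. For the counts of negative statistics by role below, the background share is likewise 50.4%. The 5 genes were Cdc20, Ccnb1, Plk1, Cdk1 and Ppp2r5d, and Plk1 falls outside the rule for named genes and was picked with its value known. Both this list and the proliferation list below were chosen with earlier results of these data known, so their shares can be moved by that choice.

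Cdc20, the activator of the anaphase-promoting complex that the checkpoint captures, is at 34.1 TPM (Ctrl) and 21.0 TPM (Bub1 cKO) in the authors' deposited table, and its test's own log2 change was -0.71 (95% interval -1.34 to -0.08). For Cdc20 the authors' deposited table has an adjusted p of 0.911. Of the 17 genes of Cdc20, the E2 enzymes and the anaphase-promoting complex 10 had a negative statistic, and the one with the highest mean, the subunit Anapc13, had 125 TPM (Ctrl) and 121 TPM (Bub1 cKO) in the authors' deposited table. The checkpoint spares cyclin B and securin, substrates of the complex. Of the 4 genes of cyclin B, securin and separase 2 had a negative statistic. By the levels 3 of the 4 were lower in Bub1 cKO (75.0%, against 50.8% of the background). Cyclin B1 (Ccnb1) is listed with 36.6 TPM (Ctrl) and 25.1 TPM (Bub1 cKO), unadjusted p = 0.049, in the authors' deposited table. Securin (Pttg1), which holds separase inactive, had 74.6 TPM (Ctrl) and 63.6 TPM (Bub1 cKO) with a statistic of 0.03 in the authors' deposited table.

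All 4 other mitotic kinases had a negative statistic. Cdk1, the kinase that drives entry into mitosis, stood at 115 TPM (Ctrl) and 85.1 TPM (Bub1 cKO), and Plk1, the polo kinase, at 29.4 TPM (Ctrl) and 20.2 TPM (Bub1 cKO) in the authors' deposited table. Their adjusted p are 0.946 and 0.983 in the authors' deposited table. The shugoshins and the passenger complex, which gather at the histone mark that Bub1 writes or act beside it, had 6 of 7 statistics negative. The passenger subunit survivin (Birc5) had the highest mean of them, with 146 TPM (Ctrl) and 115 TPM (Bub1 cKO), unadjusted p = 0.107, in the authors' deposited table.

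At the kinetochore itself, 5 of 8 genes of the Mis12 and Ndc80 complexes and 6 of 6 genes of the Rod-Zw10-Zwilch complex and the corona had a negative statistic, and 0 of these 14 reached an unadjusted p of 0.05. Spc25 of the Ndc80 complex had 42.9 TPM (Ctrl) and 28.1 TPM (Bub1 cKO) in the authors' deposited table. Pmf1 of the Mis12 complex is given there, in the authors' deposited table, with 66.7 TPM (Ctrl) and 69.9 TPM (Bub1 cKO) and a statistic of -0.26. Zw10, a dynein-recruiting subunit, is at 9.30 TPM (Ctrl) and 5.42 TPM (Bub1 cKO) by the authors' deposited table. Cenpf, a large corona protein, stood at 21.2 TPM (Ctrl) and 18.5 TPM (Bub1 cKO) in the authors' deposited table. The nuclear pore protein Tpr, which binds Mad1, showed a gap like that of Mad2l1, with 414 TPM (Ctrl) and 282 TPM (Bub1 cKO) in the authors' deposited table but a test's own log2 change of -0.06 (-0.30 to 0.19).

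Among 10 phosphatase genes that act at the kinetochore 6 had a negative statistic. Ppp2r5d, a B56 subunit of the phosphatase PP2A, had the smallest p of all 58, at 11.2 TPM (Ctrl) and 4.43 TPM (Bub1 cKO) in the authors' deposited table. The test's own log2 change was -1.32 (-2.12 to -0.52), and the authors' deposited table gives p = 0.001 before and 0.277 after adjustment. B56 subunits dock on BubR1 and counter Ttk and Aurora B at the kinetochore. The gene with the highest mean of the 10, the B56 gene Ppp2r5a, lay on the other side, with 491 TPM (Ctrl) and 658 TPM (Bub1 cKO) and a statistic of 0.41 in the authors' deposited table.

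**Figure D5:**
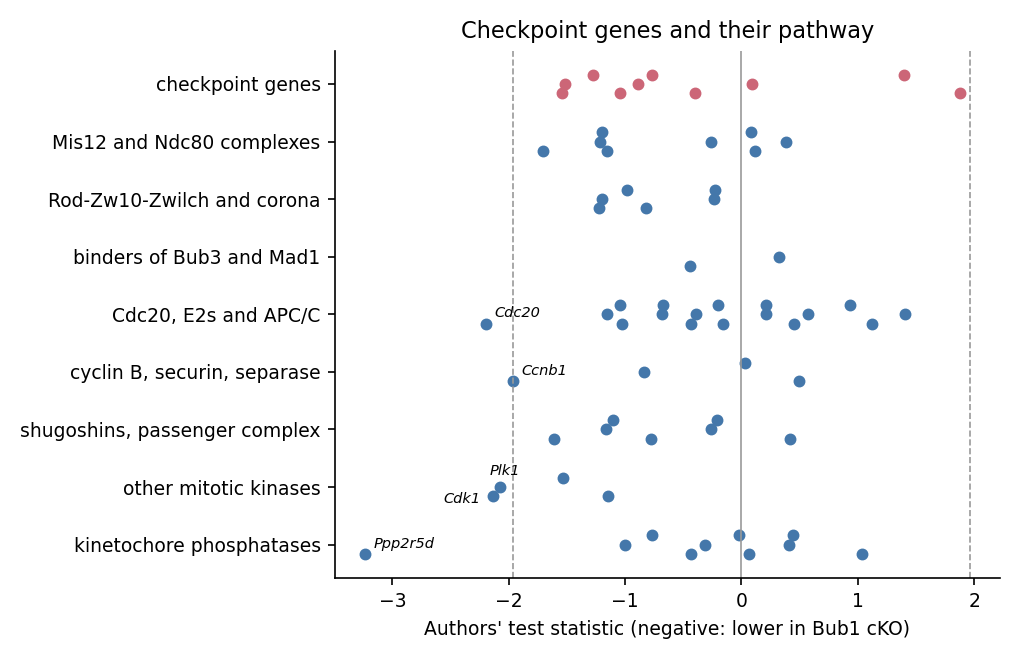
The authors' test statistic of the 10 checkpoint genes and of 58 other pathway genes by role, with dashed lines where its size is 1.96 (unadjusted p of 0.05). The checkpoint genes lie between these lines, and the 5 named points lie at or beyond the lower one.

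Genes of proliferation were looked at beside the pathway. Of 19 listed, 18 reached a mean of 1 TPM (Lin52, of the MuvB complex, did not). Of these 8 had a negative statistic (44.4%, against 50.4% of the background) and 10 a positive one. At an unadjusted p under 0.05, 1 was lower (Mcm7, 5.56%, against 3.21% of the background) and 1 was higher (Mcm6). None passed the adjusted threshold (0 of 18, against 0.181% of all genes). Mcm7 and Mcm6 both encode subunits of the replicative helicase, and Mcm6 was named after its values were seen. Mcm7 is at 79.2 TPM (Ctrl) and 57.4 TPM (Bub1 cKO) and Mcm6 at 23.6 TPM (Ctrl) and 33.3 TPM (Bub1 cKO) in the authors' deposited table. Top2a, a topoisomerase of dividing cells, had 245 TPM (Ctrl) and 191 TPM (Bub1 cKO) in the authors' deposited table. For Top2a the test's own log2 change was -0.15 (95% interval -0.38 to 0.09). The log2 change of its levels, -0.35, lies 1.71 standard errors from it. The transcription factor E2f1 and Lin9, of the MuvB complex, had statistics of 1.29 and -0.26 in the authors' deposited table.

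Markers of the labelled cells were present: the 7 macrophage markers summed to 2600 TPM (Ctrl) and 1220 TPM (Bub1 cKO), with Lyz2 past the adjusted threshold, and the 10 osteoclast markers to 1987 and 2298 TPM. The lower macrophage sum rests on Lyz2 (2141 and 762 TPM), since the other 6 macrophage markers summed to 459 TPM (Ctrl) and 458 TPM (Bub1 cKO). Within these 6, Cd68 was higher in Bub1 cKO (260 and 306 TPM). Csf1r (116 and 96.7 TPM), Itgam (36.3 and 27.1 TPM) and Adgre1 (43.6 and 24.4 TPM) were lower. At low levels, Fcgr1 was lower (1.265 and 0.759 TPM) and Mertk higher (2.21 and 2.66 TPM). At an unadjusted p under 0.05, 3 of the 7 macrophage markers were lower (42.9%, against 3.21% of the background) and 1 was higher. By the same threshold 5 of the 10 osteoclast markers were higher and 0 lower, against 333 and 349 of the 10881 background genes. None of the 10 passed the adjusted threshold (against 0.181% of all genes). The osteoclast marker with the highest mean, Mmp9, had 688 TPM (Ctrl) and 657 TPM (Bub1 cKO), and the other 9 summed to 1300 and 1640 TPM. Markers of other marrow cells also had unequal sums. The 6 erythroid markers in the table, of 8 listed, summed to 19.6 TPM (Ctrl) and 358 TPM (Bub1 cKO), with Alas2 and Slc4a1 listed at 0 in Ctrl and the globins Hbb-bs and Hbb-bt past the adjusted threshold. The 8 neutrophil markers, of 9 listed, summed to 95.7 TPM (Ctrl) and 232 TPM (Bub1 cKO). Most of it was S100a8 (41.9 and 92.8 TPM) and S100a9 (38.0 and 115 TPM). Camp, Retnlg and Lcn2 were listed at 0 in Ctrl, and Cxcr2 was past the adjusted threshold. Ltf had the lower level in Bub1 cKO (12.3 and 6.74 TPM), with a statistic of 0.22. The 4 progenitor markers in the table, of 5 listed, summed to 3.61 TPM (Ctrl) and 7.53 TPM (Bub1 cKO). Elane was listed at 0 in Ctrl, and Flt3 was lower in Bub1 cKO (0.814 and 0.357 TPM). The 4 megakaryocyte markers summed to 266 and 290 TPM, nearly all of it Pf4 (266 and 288 TPM). The other 3 summed to only 0.592 TPM (Ctrl) and 1.77 TPM (Bub1 cKO), with Gp9 listed at 0 in Ctrl. Which cells the Pf4 came from was not tested. The 5 stromal markers summed to 2.18 and 2.71 TPM, the 3 B cell markers to 4.74 and 3.77 TPM and the 3 T or NK cell markers to 0.991 and 0.256 TPM, with Vpreb1, Cd3e and Cd8a listed at 0 in Bub1 cKO. The part of these cells in the values of the checkpoint genes was not tested.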

How the data were processed

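The deposited file is the authors' own comparison of 3 Bub1 cKO with 3 Ctrl libraries, made per the labels' protocols from 25 ng of total RNA with a 3' mRNA kit. The file header names the web service RaNA-seq. Aligner, build, annotation and test: not given in the sources used here. Library depth is unknown. The deposited expression values were read as TPM from their column sums (999891 and 999954). CPM columns would sum alike. In all 15982 genes the authors' log2 change could be rebuilt within 0.002 from both levels, with 1 added to each. The deposited statistic was taken as a score, like its standard error. From it a 2-sided normal test gives the deposited p-value within 0.001 in 15974 genes, with 8 exceptions.

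No model was fitted again. The authors' adjusted p-value under 0.05 in their deposited table was the threshold, since it gives 1 value per genotype. The Benjamini-Hochberg step, used to adjust p again over fewer genes, was tested on simulated data. Python 3.11.15, pandas 2.3.3 and scipy 1.17.1 were used. Positions and transcripts come from GENCODE M21 (GRCm38), which holds 15902 of the gene IDs when versions are ignored. Named genes are the 10 members and, for each role of the pathway and proliferation lists, the gene with the smallest p and the one with the highest mean. Outside this rule, Plk1, Mcm6, Bcl2l11 and the single markers of cell types were named after their values were seen. The members and lists were chosen with earlier results of these data known.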

Additional observations from a re-analysis of the deposited data

How the results depend on the processing

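The count of checkpoint genes past the threshold was 0 in the authors' deposited table and 0 with an adjusted p under 0.1, after a second adjustment of p over genes whose mean reached 1 TPM, and after one over genes above the median mean of 3.67 TPM, and so were the counts of the pathway and proliferation lists. The smallest of these p, that of Ppp2r5d, ranged from 0.114 to 0.277. The median log2 change of the 10 genes, -0.15, was -0.13 with a pseudocount of 5, -0.15 with 0.5, -0.28 by the test's own change and -0.16 when centred on genes of at least 10 TPM, whose median was 0.01. By the test's own change Knl1 turned from 0.31 to -0.47, and Mad2l1 moved from -2.43 to -0.54. With a pseudocount of 5 Mad2l1 was at -2.00. No paired analysis was possible because the deposited table gives 1 value per genotype, and for the same reason no replicate could be left out. Depth is unknown, so the authors' standard error alone describes the precision.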

Other observations

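Bub1, Bub1b and Knl1 are 3 of the 10 checkpoint genes that lie on 1 chromosome, chromosome 2. Within 1000000 bases of Bub1 the authors' deposited table holds 25 other genes, of which 20 reached a mean of 1 TPM. None passed the adjusted threshold (0 of 25, against 0.181% of all genes). A negative statistic was found in 7 of the 20, against 50.4% of the background. The median log2 change of the levels of the 20 was 0.08, against -0.01 over the background genes. Of the nearest neighbours in the authors' deposited table, Acoxl (7011 bases away) is at 0.395 TPM (Ctrl) and 0.181 TPM (Bub1 cKO) and 1500011K16Rik (8634 bases away) at 19.2 TPM (Ctrl) and 23.0 TPM (Bub1 cKO). Of the 20, 1 gene had an unadjusted p under 0.05, against 6.27% of the background. It was Bcl2l11, which encodes the cell death inducer Bim and was named after its values were seen. It has 15.5 TPM (Ctrl) and 16.3 TPM (Bub1 cKO) with a statistic of -2.41 in the authors' deposited table, and its test's own log2 change of -0.61 differs in sign from the change of its levels (0.07).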
